A study of Rattus norvegicus with 24 samples.

Results

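The muscle alpha-actin genes Acta1 and Acta2 were followed through the right and left ventricles of rats in 3 conditions. Their members are the probes that the array's annotation assigned to 1 of these 2 gene symbols, and 4 of 4803 probes, for 2 of 4126 named genes, met this rule. Probe 4333 stands for Acta1, and probes 1745, 4338 and 4364 stand for Acta2. All 4 probes had a value on all 24 arrays, and each is listed under its own sequence record. They are described one by one because the Acta2 probes differed from one another.

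Each array compared the total RNA of 1 ventricle sample with a common reference pool. At day 14, each of the conditions labelled HYP, CHF and CON was represented by 6 right and 2 left ventricle samples. HYP is read here, from the title of the series, as compensated and CHF as decompensated hypertrophy after monocrotaline, with CON as the control. These abbreviations are not spelled out, and the labels state no dose, rat strain, age or sex, nor what the CON rats received. Monocrotaline, an alkaloid of Crotalaria plants, damages lung vessels and so raises the pressure against which the right ventricle works, while the left ventricle is not loaded in this way.

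Actins are the globular proteins that polymerise into the thin filaments on which myosin pulls. Acta1 encodes skeletal alpha-actin, the sarcomeric actin of adult skeletal muscle, which the rodent heart uses in fetal life and takes up again under pressure load, when it is a classical member of the fetal gene programme. Acta2 encodes smooth muscle alpha-actin, which is made by vascular smooth muscle and by myofibroblasts, and also by the early embryonic heart. The cardiac alpha-actin Actc1, which predominates in adult cardiomyocytes, had 0 probes in the annotation, as did Actb and Actg2, and the cytoplasmic Actg1 had 1. Both genes are known targets of serum response factor, which binds CArG boxes together with myocardin-family coactivators.

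The promoters are shown as background, because both genes are known to be driven through CArG boxes. Whether these sequences bear on the scores below was not tested. The 250 bases before each start site come from RefSeq on the rat build GRCr8, and both genes lie on the minus strand. The Acta1 window is chr19:68784195-68784444 and the Acta2 window is chr1:241172504-241172753. Both sequences run 5′ to 3′ along the gene, and capitals mark CArG boxes, exact or with 1 of the 6 inner bases C or G.
Acta1: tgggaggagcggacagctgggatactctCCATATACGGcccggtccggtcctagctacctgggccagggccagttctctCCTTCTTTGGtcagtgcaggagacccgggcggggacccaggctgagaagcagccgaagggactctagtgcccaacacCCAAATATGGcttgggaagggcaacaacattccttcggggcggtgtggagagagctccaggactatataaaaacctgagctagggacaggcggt
Acta2: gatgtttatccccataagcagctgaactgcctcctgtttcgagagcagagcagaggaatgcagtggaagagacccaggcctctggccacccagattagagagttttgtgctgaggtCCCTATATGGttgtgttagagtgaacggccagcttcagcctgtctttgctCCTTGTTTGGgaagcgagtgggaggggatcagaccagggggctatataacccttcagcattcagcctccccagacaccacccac

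The exact CArG box was found 1 time in the Acta1 window, at positions -94 to -85 relative to the start site, and 0 times in the Acta2 window. Of 33469 rat promoter windows of the same length, 501 (1.50%) held it. The form with 1 inner C or G was found 2 times in each window, starting at -222 and -171 in Acta1 and at -134 and -84 in Acta2, and 6.84% of all windows held it. CATTCC, the core of the MCAT element to which TEAD factors bind, was found 1 time in each window against 12.1% of all windows. TATAAA was found 1 time in Acta1 and 0 times in Acta2 against 12.9%. All motifs were searched on both strands, the CArG box reads as the same motif on both, and a match is a description of the letters only.

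The deposited values are signed scores with a mean near 0 (-0.0345 to 0.0713) and an SD near 1 (0.870 to 1.01) on every array. They were read as standardised ratios of sample to reference pool, scaled array by array, and after centring on the array's median a score of 1 is 1 array SD above that median. Differences between groups are therefore in array SDs, and no fold change can be read from them. Arrays held 2162 to 3658 values. The lowest correlation between 2 arrays over all probes was -0.530, and 13 of 276 pairs of arrays were below -0.3. No source used here gives the dyes. The direction of the scores is thus not settled, and "higher" below means a higher score read as sample over pool. The sign of 5 arrays is in doubt by these correlations, namely arrays 10 and 14 of the CHF right ventricle, array 9 of the CHF left ventricle and both arrays of the CON left ventricle (21 and 22), and values with the sign of these 5 turned are given beside each comparison. Turning every array at once would reverse all directions. Of 11 other genes whose direction in a loaded ventricle is textbook knowledge, 5 had the textbook sign when CHF and CON right ventricles were compared, and only Ankrd1 was below 0.05 without adjustment (1.56 ± 0.418, limma adjusted p = 0.109), where 8.47% of all probes were. Whether each sample is its own animal is not stated in the labels, and p-values then reflect the scatter of these samples alone, which may be technical.

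Acta1, the skeletal alpha-actin, had its lowest scores in the CON right ventricle and its highest in the CHF right ventricle. In CON its scores ran from -4.13 to -0.947 with a median of -2.73 (n = 6). In HYP they ran from -0.697 to 2.23 with a median of 0.285, and in CHF from 1.075 to 2.71 with a median of 1.62 (n = 6 each). All 6 CON arrays lay below 0, 4 of the 6 HYP arrays lay above it and all 6 CHF arrays did. The HYP and CHF ranges overlapped, and neither overlapped the CON range. The means were -2.66 ± 1.37, 0.450 ± 1.11 and 1.69 ± 0.556 (SD, n = 6 each) for CON, HYP and CHF, so CHF had the smallest spread. The percentile of Acta1 among the scores of each array had a median of 0.614 over the CON arrays and of 96.4 over the CHF arrays. Such percentiles rank ratios to the pool and not abundance. The CHF arrays whose sign is in doubt read 1.72 (array 10) and 1.39 (array 14) and lay within the range of the other 4 CHF arrays, 1.075 to 2.71.

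**Figure D1:**
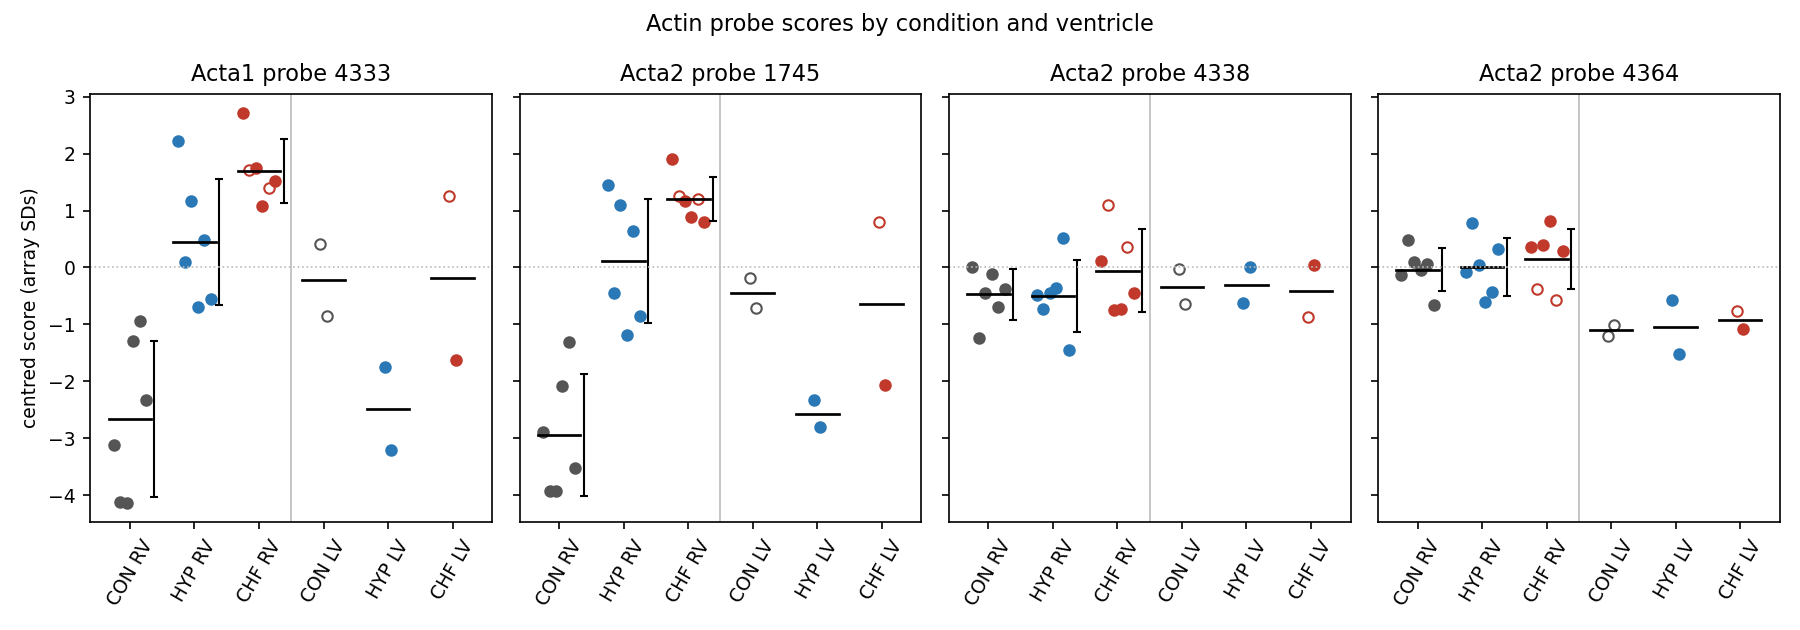
Centred score (array SDs) of the 4 muscle alpha-actin probes by condition and ventricle, 1 point per array, with the group mean as a bar and ± 1 SD beside the right ventricle groups. Hollow points are the 5 arrays whose sign is in doubt. Acta1 probe 4333 and Acta2 probe 1745 are low in CON right ventricle (means -2.66 and -2.94) and above 0 in CHF right ventricle (means 1.69 and 1.20), while probes 4338 and 4364 stay between -1.45 and 1.10 in the right ventricle.

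Acta2 probe 1745 followed the same order as Acta1. Its CON right ventricle scores ran from -3.92 to -1.30 with a median of -3.21 (mean -2.94 ± 1.07, SD, n = 6). Its HYP scores ran from -1.18 to 1.45 with a median of 0.0975 (mean 0.118 ± 1.09, n = 6), and its CHF scores from 0.790 to 1.90 with a median of 1.18 (mean 1.20 ± 0.390, n = 6). HYP and CHF overlapped and both lay wholly above CON, as for Acta1.

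The other 2 probes of the smooth muscle actin gene did not show this order. Probe 4338 had means of -0.474 ± 0.449 in CON, -0.497 ± 0.633 in HYP and -0.0577 ± 0.725 in CHF (SD, n = 6 each), with ranges of -1.23 to 0.0100, -1.45 to 0.510 and -0.746 to 1.10. Probe 4364 had means of -0.0360 ± 0.370, 0.00783 ± 0.506 and 0.152 ± 0.523, with ranges of -0.658 to 0.477, -0.603 to 0.789 and -0.577 to 0.811. For both probes all 3 right ventricle groups overlapped. The highest CHF score of probe 4338 came from array 10 and the next from array 14 (0.360), and for probe 4364 these arrays were the lowest of the CHF group, at -0.374 and -0.577.

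The first comparison asked how the CHF right ventricle differed from CON. The CHF mean of Acta1 exceeded the CON mean by 4.35 ± 0.574 array SDs (SE; 6 arrays each; limma adjusted p = 0.000144) and Acta2 probe 1745 by 4.14 ± 0.496 (adjusted p = 9.42e-05), with every CHF array above every CON array in both cases. Over all probes 31 of 3269 were called (0.948%), 30 of them higher (0.918%), and of the 4 alpha-actin probes 2 were. The 31 calls fell to 17 without CON array 19 and to 18 without CHF array 10. By p, probe 1745 ranked 2 and Acta1 ranked 9 among the 3269. Groups without overlap occurred in 1.49% of the 1816 probes with values on all 12 arrays. An exact two-sided permutation test over the arrays gave p = 0.00216 for either probe, the smallest that 6 against 6 can give, and 0.00649 after adjustment over 12 tests. Probe 4338 differed by 0.417 ± 0.354 (adjusted p = 0.785, 95% confidence interval -0.325 to 1.16) and probe 4364 by 0.188 ± 0.291 (adjusted p = 0.892, interval -0.420 to 0.797), and neither was called.

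With the sign of CHF arrays 10 and 14 turned, the Acta1 difference was 3.31 and no longer passed (limma adjusted p = 0.0808), while probe 1745 still passed at 3.32 (adjusted p = 0.0181). Without these 2 arrays the differences were 4.42 and 4.13 and both passed. In bulk RNA, more cells that express a gene cannot be told apart from more RNA per cell.

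The second comparison set the HYP right ventricle against the same CON samples. Acta1 was higher in HYP by 3.11 ± 0.574 (SE, n = 6 and 6, limma adjusted p = 0.0154) and probe 1745 by 3.06 ± 0.496 (adjusted p = 0.00942). Over all probes 11 of 3269 were called (0.336%), all of them higher, and among them were 2 of the 4 alpha-actin probes, ranking 7 and 2 by p. Without HYP array 4 or 6 or CON array 18, 19 or 22 there were 4 to 6 calls in place of 11. No HYP array overlapped CON for either probe, which 0.849% of 2002 probes showed, and the exact permutation test gave 0.00649 after adjustment over the 12 tests. Probe 4338 differed by -0.0230 (95% confidence interval -0.765 to 0.719) and probe 4364 by 0.0438 (-0.565 to 0.652), and neither was called (limma adjusted p = 0.9997 for both).

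The HYP call of Acta1 was lost without HYP array 4 or 6 or CON array 18 or 19, at 2.81 to 3.10, while probe 1745 kept its call in all 12 fits that left out 1 array. With the 2 groups fitted alone neither passed (adjusted p = 0.129 and 0.111), and with the doubtful CHF arrays turned, which enter only the estimate of the spread, neither did either (0.262 and 0.0934).

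The third comparison set CHF against HYP in the right ventricle. Acta1 was 1.24 ± 0.574 higher in CHF (SE, n = 6 and 6, limma adjusted p = 0.930, 95% confidence interval 0.0412 to 2.44) and probe 1745 1.08 ± 0.496 higher (adjusted p = 0.930, interval 0.0439 to 2.12). Neither passed, and no probe of the 3269 did (0.0%), with 162 at an unadjusted p below 0.05 (4.96%). A CHF array stood above a HYP array in 30 of 36 pairings for Acta1 and in 29 of 36 for probe 1745. The exact permutation test gave p = 0.0390 and 0.0606, or 0.0935 and 0.121 after adjustment. Probes 4338 and 4364 differed by 0.440 and 0.144, with intervals of -0.302 to 1.18 and -0.464 to 0.753. With the doubtful arrays turned, Acta1 differed by 0.206 and probe 1745 by 0.262.

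**Figure D2:**
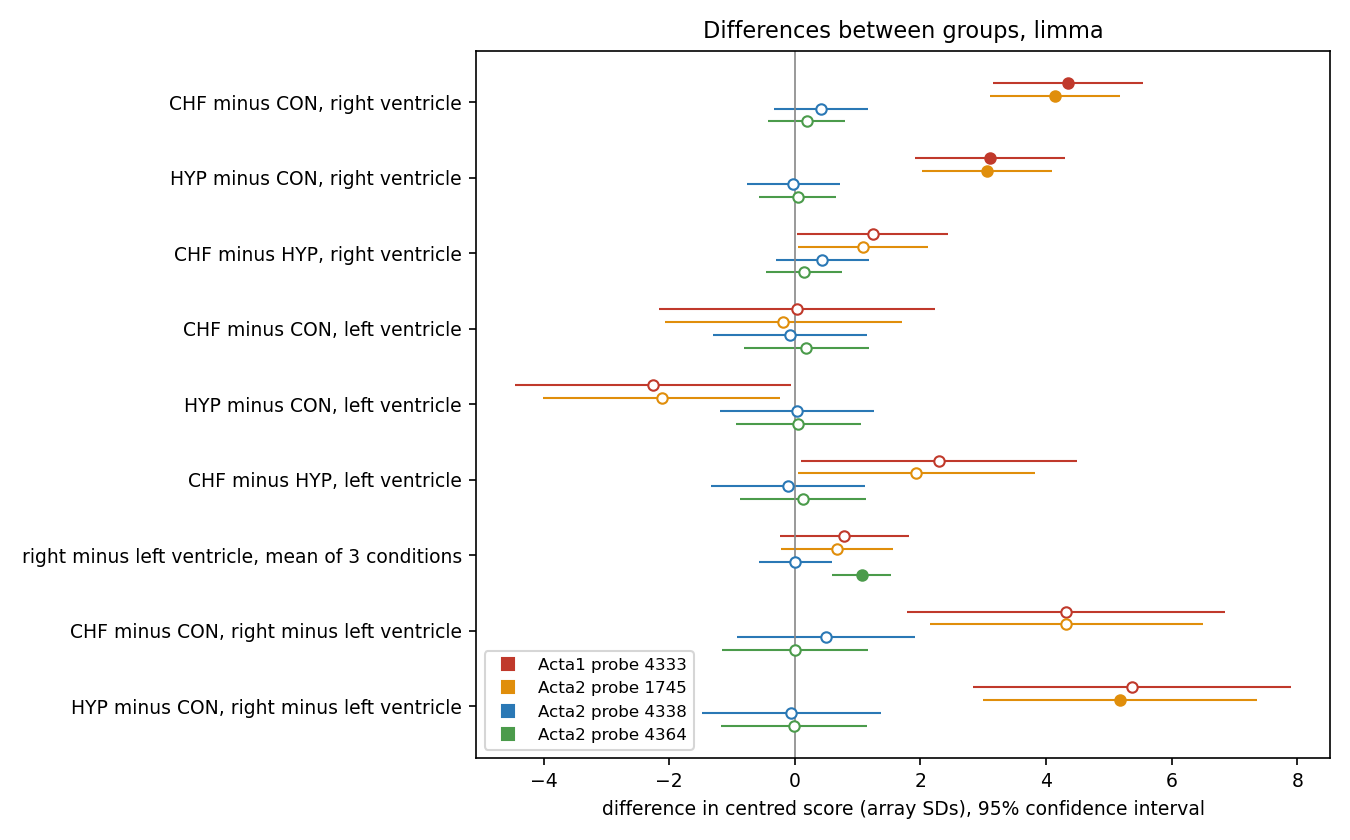
Difference in centred score (array SDs) with its 95% confidence interval from limma, for each alpha-actin probe in the 3 right ventricle, 3 left ventricle and 3 between-ventricle comparisons. Filled points have an adjusted p below 0.05. In the right ventricle Acta1 and Acta2 probe 1745 are called against CON (4.35 and 4.14 in CHF, 3.11 and 3.06 in HYP), and probe 4364 is called only between ventricles (1.07).

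Of the probes named Acta2, probe 1745 differed from the other 2 in how far CHF and HYP stood from CON. The difference between 2 probes was taken on each array and compared between groups with an exact two-sided permutation test, 18 tests in all. Against CON, probe 1745 exceeded probe 4338 by 3.72 in CHF and 3.08 in HYP, and probe 4364 by 3.95 and 3.01 (adjusted exact p = 0.00649 to 0.00974). Acta1 exceeded the same 2 probes by 3.93 and 4.16 in CHF and by 3.13 and 3.06 in HYP (adjusted exact p = 0.00649 to 0.00974). Acta1 and probe 1745 differed by only 0.210 in CHF against CON and 0.0493 in HYP against CON (adjusted exact p = 0.562 and 0.905). Probes 4338 and 4364 differed from each other by 0.228 in CHF against CON and by -0.0668 in HYP against CON, and did not pass (adjusted exact p = 0.774 and 0.909). In CHF against HYP no pair of probes passed. There probe 1745 exceeded probes 4338 and 4364 by 0.6425 and 0.938 (adjusted exact p = 0.334 and 0.253). Averaging the 3 Acta2 probes gave 1.58 in CHF against CON (limma adjusted p = 0.00132) and 1.03 in HYP against CON (adjusted p = 0.195), values that lie between those of probe 1745 and of the other 2 probes. The coding sequences of actin genes are closely alike, the annotation can be old and probe sequences were not used here, so which actin transcript each probe bound was not tested.

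Acta1 and probe 1745 also varied together within groups. After the group means were removed, their scores correlated over the 18 right ventricle arrays at Pearson r = 0.918 (permutation p = 1e-05, the smallest that 100000 draws can give, 6e-05 after adjustment over 6 pairs of probes) and Spearman rho = 0.856 (adjusted permutation p = 0.00171). Without the 2 arrays farthest from the median r was 0.867. Within single conditions it was 0.951 in HYP, 0.899 in CHF and 0.908 in CON, and with the doubtful arrays turned it was 0.951. The raw scores of the 6 left ventricle arrays, with group means left in, correlated at 0.970.

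Probes 4338 and 4364, both named Acta2, went opposite ways within groups, with r = -0.707 (adjusted permutation p = 0.0109) and rho = -0.779 (adjusted permutation p = 0.00171). Without the 2 farthest arrays r was -0.682, and with the doubtful arrays turned it was -0.548. In the raw scores of the 6 left ventricle arrays, with group means left in, it was -0.773. Over the right ventricle arrays probe 4338 correlated at 0.769 with the first component of the arrays, which held 43.1% of the variance around the group means, and probe 4364 at -0.701. The same correlations were 0.0608 for Acta1 and 0.10 for probe 1745. With the array medians, which the centring had subtracted, probes 4338 and 4364 correlated at -0.726 and 0.754. Acta1 and probe 1745 did so at 0.0576 and 0.0478. The part of this array-wide variation in the scores of probes 4338 and 4364 was not tested. The other 4 pairs of alpha-actin probes had r between -0.129 and 0.323 and did not pass.

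**Figure D3:**
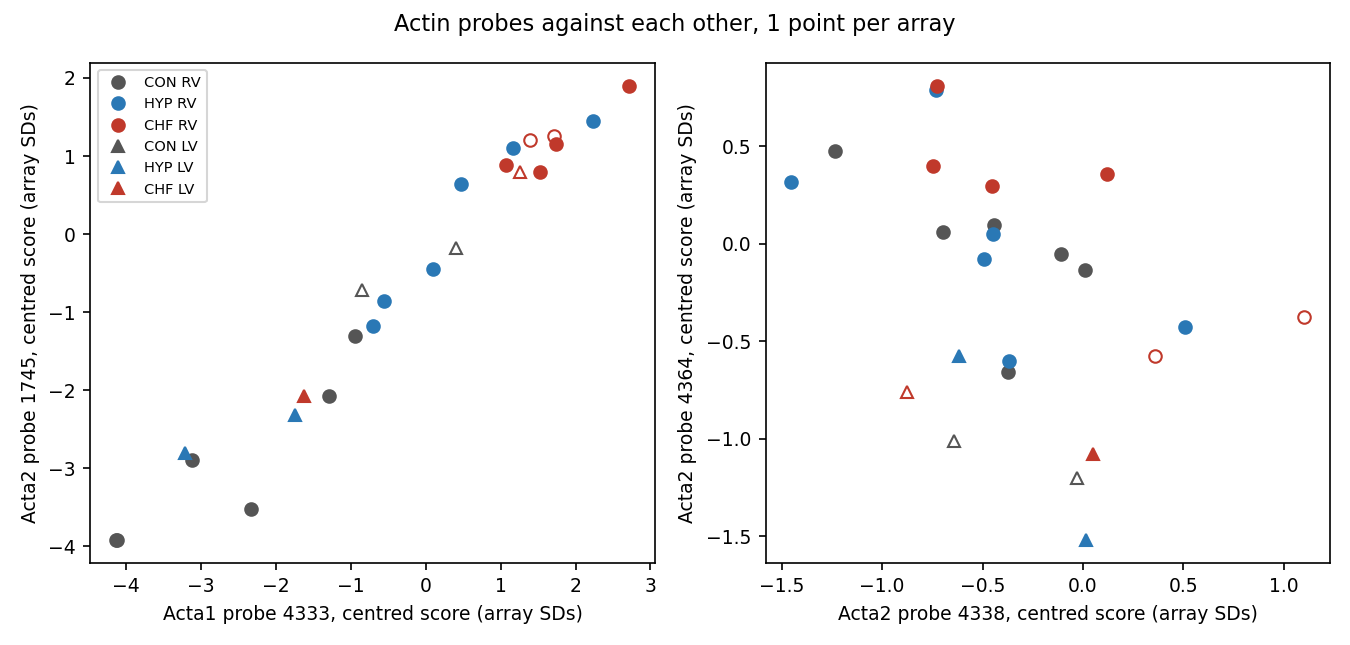
Centred scores (array SDs) of Acta2 probe 1745 against Acta1 probe 4333 (left panel) and of Acta2 probe 4364 against Acta2 probe 4338 (right panel), 1 point per array, circles for right and triangles for left ventricle, hollow where the sign is in doubt. The left panel follows 1 line through all 6 groups, and the right panel falls from left to right. Over the 18 right ventricle arrays alone, within-group r was 0.918 in the left panel and -0.707 in the right.

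The probes most like Acta1 over the 18 right ventricle arrays, among 1672 others with a value on all of them, were a group of 5. They were Fgb probe 3713, for the fibrinogen beta chain (r = 0.990), Maoa, for the mitochondrial monoamine oxidase A (0.990), Ocm, for the calcium-binding oncomodulin (0.983), Acta2 probe 1745 (0.982) and Safb, for a nuclear scaffold attachment factor (0.968). Over the 6 left ventricle arrays, which were not used to choose them, r with Acta1 was 0.918, 0.898, 0.992, 0.970 and 0.989. These are descriptions over arrays that share the 3 conditions and the reference pool. In all, 11 probes had r above 0.9 with Acta1 and 13 with probe 1745. The 5 named probes nearest to probe 1745 were Safb (0.991), Maoa (0.988), Ocm (0.987), Fgb probe 3713 (0.987) and Acta1, with left ventricle values of 0.975, 0.944, 0.984, 0.957 and 0.970.

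Their differences against CON were smaller than or close to those of Acta1. The probes were chosen for their likeness to Acta1 over the same arrays, with group means left in. Differences in the same direction largely follow from that choice and are no separate evidence. In CHF, Safb was higher by 4.39 ± 0.532, Maoa by 3.66 ± 0.473, Fgb probe 3713 by 3.34 ± 0.465 and Ocm by 2.98 ± 0.377 (SE, n = 6 and 6, limma adjusted p from 9.42e-05 to 0.000276). In HYP they were higher by 3.21, 2.47, 2.25 and 2.05 (adjusted p from 0.00942 to 0.0358). Fgb behaved like Acta2 in having probes that differed, since its other probe, 2148, correlated with Acta1 at 0.410 and differed by 0.469 ± 0.304 in CHF (adjusted p = 0.708). Like the actins, these probes were not matched to transcripts here.

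**Figure D4:**
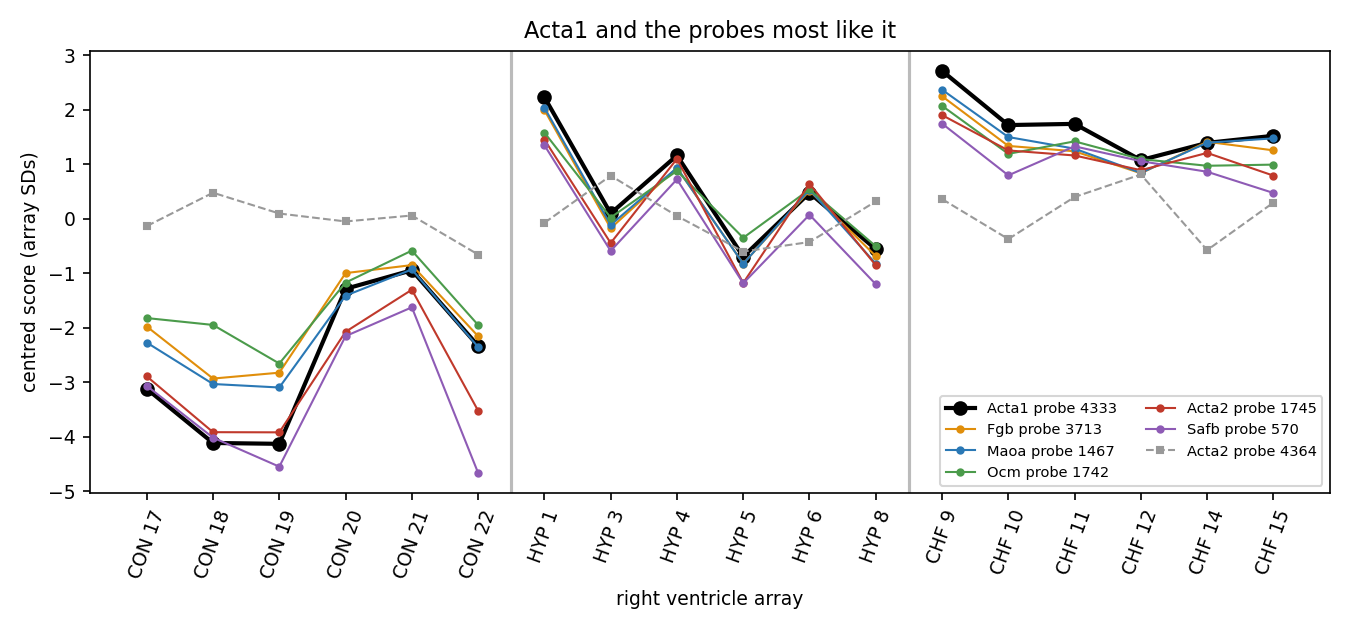
Centred score (array SDs) of Acta1 and of the 5 named probes most like it on each of the 18 right ventricle arrays, with Acta2 probe 4364 as a dashed line for contrast. Lines only join the points of 1 probe within a condition, and arrays have no order. The 6 solid lines move together from array to array, and the dashed line does not. For the 5 named probes, r with Acta1 was 0.968 to 0.990 with group means left in and 0.846 to 0.959 with them removed.

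The other Acta2 probes had other neighbours. Probe 4338 was most like Fgb probe 2148 (r = 0.920), Actr3, a subunit of the complex that nucleates branched actin filaments (0.893), Hsp90ab1 (0.832), Fgf16 (0.820) and Slc16a1 (0.819). Over the 6 left ventricle arrays these read 0.894, 0.988, 0.0649, 0.924 and 0.889, so Hsp90ab1 alone fell near 0. Probe 4364 was most like Npr2, a natriuretic peptide receptor (0.885), Mapt (0.854), Sgta (0.841), Adra1b (0.834) and Tcn2 (0.830), and over the left ventricle arrays these read 0.376, 0.716, 0.865, 0.289 and 0.940, with Npr2 and Adra1b the lowest. None of these 10 probes was among the 5 named neighbours of Acta1, although Fgb was, through its other probe, and with the doubtful arrays turned the 10 correlations ranged from 0.659 to 0.916.

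In the left ventricle the 2 arrays of each condition gave no call. Acta1 read 0.410 and -0.850 in CON, -1.75 and -3.21 in HYP and 1.25 and -1.62 in CHF. The HYP arrays were the lowest pair, and the CHF pair was spread more widely than any other. Probe 1745 read -0.180 and -0.720 in CON, -2.32 and -2.81 in HYP and 0.799 and -2.07 in CHF, in the same order as Acta1. Differences in limma, where the left ventricle groups were assumed to vary like the right, were -2.26 ± 1.06 for Acta1 and -2.12 ± 0.910 for probe 1745 in HYP against CON (SE, n = 2 and 2, adjusted p = 0.996 for both). In CHF against CON they were 0.0365 ± 1.06 and -0.186 ± 0.910, and in CHF against HYP 2.30 ± 1.06 and 1.93 ± 0.910 (adjusted p = 0.952). None of the 2540 probes was called by limma in any of the 3 left ventricle comparisons (0.0%), although 23 (0.906%), 47 (1.85%) and 79 (3.11%) had an unadjusted p below 0.05 for CHF over CON, HYP over CON and CHF over HYP. With the 3 doubtful left ventricle arrays turned, Acta1 was -1.66 in CHF against CON, -2.70 for HYP over CON and 1.04 for CHF over HYP, again with no call for it. Probe 4338 read -0.0300 and -0.640 in CON, -0.618 and 0.0140 in HYP and -0.876 and 0.05 in CHF. No difference of probe 4338 or 4364 between left ventricle groups was larger than 0.185 in either direction, and none passed, with the values of probe 4364 given with the ventricle comparison. With the doubtful arrays turned, probe 4364 was called in HYP against CON at -2.15 (limma adjusted p = 0.0291), where 99 of the 2540 probes were.

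Ordered by their means, the 6 groups ran for Acta1 from CON right (-2.66) and HYP left (-2.48) through CON left (-0.220), CHF left (-0.184) and HYP right (0.450) to CHF right (1.69). Of neighbours in this order, only HYP left and CON left had no overlapping arrays, and that step did not pass. For probe 1745 the order was CON right (-2.94), HYP left (-2.57), CHF left (-0.636), CON left (-0.450), HYP right (0.118) and CHF right (1.20), which differs from that of Acta1 only in the place of the CON and CHF left ventricles. For probe 4338 all 6 means lay between -0.497 and -0.0577.

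Averaged over the conditions, probe 4364 was the alpha-actin probe called between the right and left ventricles in the main fit, which took the samples as unpaired. Its left ventricle scores were -1.20 and -1.01 in CON, -0.574 and -1.52 in HYP and -0.761 and -1.08 in CHF, against -0.658 to 0.811 in the 18 right ventricle arrays, so that 1 left ventricle array reached into the right ventricle range. The right ventricle stood higher by 1.07 ± 0.227 (SE, n = 18 and 6, limma adjusted p = 0.00558). Of all 2540 probes 456 were called between ventricles (18%), 300 of them higher (11.8%), so 1 of 4 alpha-actin probes is close to the background. With the doubtful arrays turned, the difference of probe 4364 was 0.181 (adjusted p = 0.756) and 0 probes were called. Acta1, probe 1745 and probe 4338 differed by 0.790 ± 0.498, 0.677 ± 0.429 and 0.00700 ± 0.280 (adjusted p = 0.260, 0.263 and 0.991). Right and left ventricle samples share 6 sample numbers, and whether these mark pairs is not settled. With the number as a fixed block, where more probes were called, Acta1 passed at 1.02 (limma adjusted p = 0.00997). All 4 measured erythrocyte markers were called lower in the right ventricle, with a median difference of -5.44, and their part in the ventricle difference was not tested.

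Whether an effect against CON differed between ventricles was tested directly. For HYP the right ventricle difference exceeded the left by 5.37 ± 1.22 for Acta1 (SE, limma adjusted p = 0.0659) and by 5.17 ± 1.05 for probe 1745 (adjusted p = 0.0498), of which the second passed. Over all probes 4 of 2540 passed (0.157%), and 63 (2.48%) had an unadjusted p below 0.05. The call of probe 1745 was lost without 12 of the 16 arrays in turn, all but HYP right 5, HYP right 8, CON right 20 and CON right 21, with adjusted p from 0.0224 to 0.631. For CHF the excess was 4.31 ± 1.22 for Acta1 and 4.33 ± 1.05 for probe 1745 (adjusted p = 0.389 and 0.167), and 0 probes passed in limma (0.0%), and 70 (2.76%) fell below 0.05 unadjusted. With the doubtful arrays turned the HYP values were 5.81 and 6.07 and both passed (adjusted p = 0.0428 and 0.00694), and the CHF values were 4.97 and 5.20, of which probe 1745 passed (adjusted p = 0.0432). Probes 4338 and 4364 gave -0.0560 and -0.0137 for HYP and 0.495 and 0.00367 for CHF.

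Among genes that build and turn over thin filaments, the tropomyosins stood with the actins. Of 17 measured members, 3 rose in CHF against CON and none fell, where 0.918% of all probes were called higher, and 10 of the 17 differences were above 0 with a median of 0.166, against 41.2% above 0 and a median of -0.0992 over all probes. Tpm3, a tropomyosin of slow muscle and the cytoskeleton, was higher by 2.91 ± 0.348 (SE, n = 6 and 6, limma adjusted p = 9.42e-05), and Tpm4, a cytoskeletal tropomyosin, by 2.90 ± 0.444 (n = 6 and 6, adjusted p = 0.000795). Tropomyosin lies along the actin filament and governs the access of myosin. No other tropomyosin was among the 17. The filament-severing cofilin Cfl1 stood 5.92 ± 1.18 higher, but on 2 CHF and 4 CON arrays (adjusted p = 0.0455), and it was -3.58 with the doubtful arrays turned, where Tpm3 still passed at 2.35 and Tpm4 did not at 1.77. Cfl1 further lost its call without CHF array 9 or CON array 17, 18, 19 or 22, at 5.37 to 5.92, and under quantile normalization (4.51, limma adjusted p = 0.0620) and array weights (adjusted p = 0.0991), and it fell to 3.45 with the first array component as a covariate, where it passed. In HYP only Tpm3 rose, 1 of 17 against 0.336% of all probes, by 1.91 (adjusted p = 0.0154), and it lost that call without HYP array 4 or 6 or CON array 19, at 1.75 to 1.82, with the 2 groups fitted alone (adjusted p = 0.129) and with the doubtful arrays turned (adjusted p = 0.113). In CHF against HYP none of the 17 passed. The cytoplasmic Actg1 differed by 0.848 ± 0.313 in CHF and 0.506 ± 0.313 in HYP against CON and did not pass (adjusted p = 0.367 and 0.9997).

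The list for the serum response factor pathway, which is known to drive both actin genes through CArG boxes, held 32 genes. Of these 12 had a probe and 11 could be tested. Neither serum response factor itself nor a myocardin-family coactivator was among the 11. In CHF against CON, HYP against CON and CHF against HYP of the right ventricle 0 of them passed, where 0.948%, 0.336% and 0.0% of all probes were called. In CHF against CON 5 of the 11 differences were above 0, with a median of -0.0614, against 41.2% above 0 and a median of -0.0992 over all probes. The smallest p belonged to Ankrd1, at 1.56, and to Ccn2, a secreted matricellular protein, at 0.670 ± 0.346 (limma adjusted p = 0.617). Among 14 marker genes of a pressure-loaded ventricle, set against the same values over all probes, 9 differences were above 0 with a median of 0.432. Of these genes 0 passed, where 0.948% of all probes were called, and the list was again led by Ankrd1 and Ccn2.

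Markers of the cell types that can make these actins were set beside them. Over all probes, 0.948% were called in CHF against CON and 41.2% of the differences were above 0, with a median of -0.0992. Of 11 smooth muscle and pericyte probes, 0 passed in that comparison and 7 differences were above 0, with a median of 0.341. Cald1, a smooth muscle actin-binding protein, stood at 1.14 ± 0.301 (SE, n = 6 and 6, limma adjusted p = 0.0965), Rgs5, a pericyte marker, at 1.08 ± 0.430 (n = 5 and 6, adjusted p = 0.468) and Tagln, the smooth muscle protein SM22, at 0.528 ± 0.238. The defining smooth muscle myosin Myh11 stood at -0.610 ± 0.321 and 0.552 ± 0.631 on its 2 probes. The other differences below 0 were those of Itga8 (-0.398 ± 0.749), Kcnmb1 (-0.204 ± 0.311) and the pericyte marker Pdgfrb (-0.134 ± 0.335). The mean score of 6 such probes ranged from -0.332 to 0.365 over the CON arrays, -0.147 to 0.546 over HYP and 0.00133 to 0.569 over CHF, so the groups overlapped. Of 14 fibroblast and myofibroblast probes, 0 passed and 5 were above 0, with a median of -0.126, led by the matrix proteoglycan Dcn at -0.993 ± 0.375 and the intermediate filament Vim at 0.853 ± 0.372 (adjusted p = 0.403 and 0.533).

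Skeletal muscle markers bear on Acta1, whose main site in the adult is skeletal muscle. Of 17 probes 1 rose in CHF, against 0.918% of all probes, namely Pvalb, the calcium buffer of fast fibres, by 1.18 ± 0.244 (SE, n = 6 and 6, limma adjusted p = 0.0184), while 5 of 17 differences were above 0, against 41.2% of all probes, with a median of -0.183. Leaving out CHF array 9 or 10 or CON array 17 or 19 ended the call of Pvalb, at 1.10 to 1.16, as did leaving out both doubtful arrays (1.14, adjusted p = 0.104) or turning them (0.608). The mean score of 12 of these probes ranged from 0.127 to 0.263 in CON, 0.0476 to 0.449 in HYP and -0.169 to 0.272 in CHF. Of 20 cardiomyocyte probes 1 was called, against 0.948% of all probes. It was Ttn probe 1997, at 7.04 on 2 CHF and 2 CON arrays and at -3.74 with the doubtful arrays turned. It had no call with the array component as a covariate (5.17, limma adjusted p = 0.569), and the other 4 Ttn probes stood between 0.107 and 1.17. Of 4 endothelial probes 1 was called, again against 0.948% of all probes. It was Cav1, a caveolin, at 4.92 on 2 and 3 arrays and at -3.68 with the doubtful arrays turned. Its call was also lost without CON array 17, 19 or 20, under quantile normalization (3.84, limma adjusted p = 0.0609) and with array weights (adjusted p = 0.109). The same held when the array component entered as covariate (adjusted p = 0.127). Of 5 macrophage and 4 erythrocyte probes 0 passed in CHF against CON, with medians of -0.00817 and 0.990. The 3 erythrocyte probes measured throughout, all haemoglobin genes, had mean scores of -6.65 to -1.67 in CON, -5.36 to -2.0 in HYP and -3.92 to -0.740 in CHF. In HYP against CON none of these cell type lists had a member that passed, where 0.336% of all probes did. Scores have no 0 level, so whether a marker is present cannot be read from them, and the part of any cell type in the actin differences was not tested. Of 16 cardiomyocyte genes with a probe, 11 had values on all 24 arrays.

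**Figure D5:**
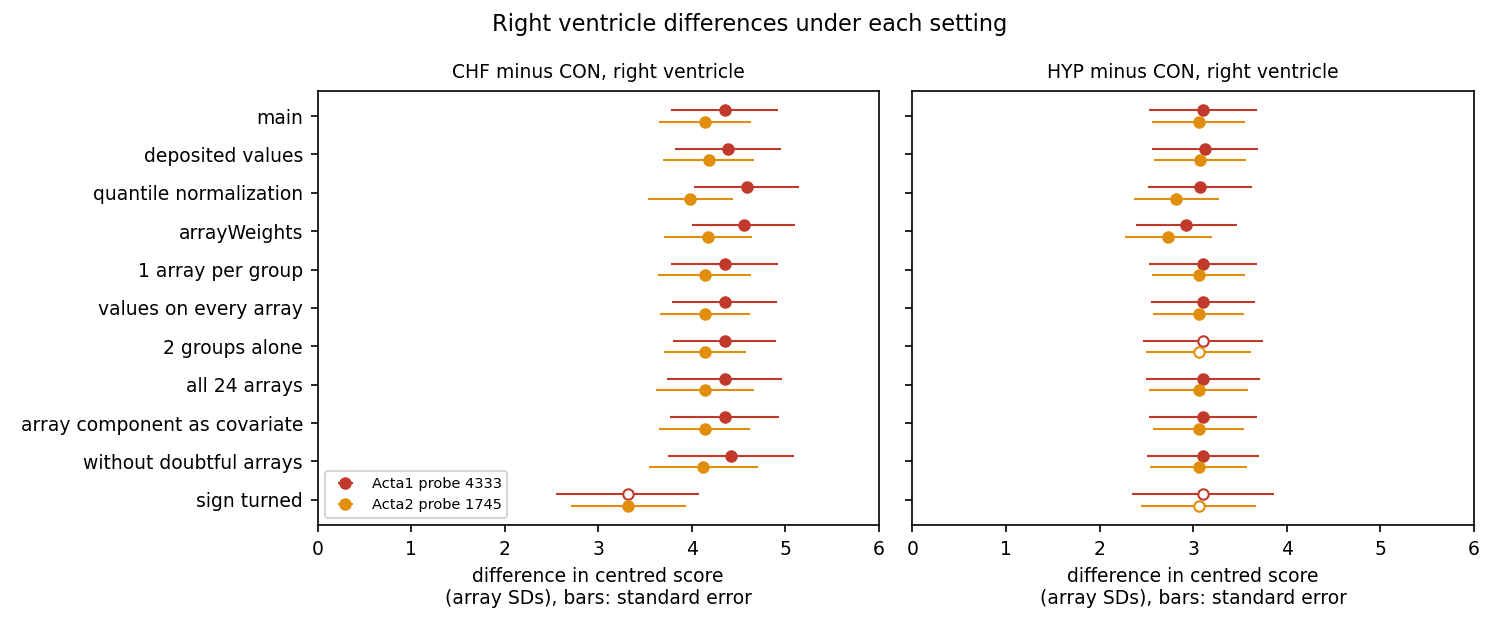
Difference in centred score (array SDs) ± SE for Acta1 probe 4333 and Acta2 probe 1745 in CHF and HYP against CON of the right ventricle, under the main setting and 10 alternatives. Filled points have an adjusted p below 0.05. CHF against CON stays above 3.3 throughout and Acta1 loses its call with the sign turned, and in HYP against CON both lose it with 2 groups fitted alone and with the sign turned.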

How the data were processed

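RNA of 24 rat ventricle samples was measured on 2-colour arrays against a reference pool, 18 from the right and 6 from the left ventricle. The authors deposited a signed score per probe and array. No source used here gives the scanner, dyes, background correction, normalization or filters. Log ratios had been assumed in the design; limma was run on the scores in the same way. Each array was centred on its median. Signal over background cannot be read from scores, and precision is limited by how many arrays there are. On 3 left ventricle arrays scores have 2 decimals.

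Probes were named through the platform's annotation, which gave 1 symbol to 4278 probes, several to 4 and none to 521; 567 probes had no value on any of the arrays. Groups were compared with limma 3.58.1 in R 4.3.3 (statmod 1.5.0), tested on simulated data, with Benjamini-Hochberg adjustment over all probes measured on 2 or more arrays in every group compared, and probes were called at adjusted p below 0.05. The 18 right ventricle arrays were fitted together for right ventricle comparisons and all 24 arrays otherwise. Permutation and sign-flip tests were coded directly in Python. Arrays of doubtful sign are those that correlate below -0.3 with another array and whose median correlation with the right ventricle arrays is the lower of the pair. The alternatives were the deposited values, quantile normalization, turned signs, array weights, other filters on missing values, gene means, other sets of arrays, an array component and sample number as a block.

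The members and the lists of genes and markers were chosen with earlier results of these data known. Named were all Acta1, Acta2 and other actin probes, list members that passed or otherwise had the smallest p, and the 5 genes most like each probe. Tagln, Myh11, Itga8, Kcnmb1, Pdgfrb, the further Ttn probes and the second Fgb probe were named after their values were seen.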

Additional observations from a re-analysis of the deposited data

Results flagged for a closer look

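The HYP effect on Acta2 probe 1745 differed between ventricles by a test of the difference itself. HYP minus CON was 3.06 in the right ventricle and -2.12 in the left, a difference of 5.17 ± 1.05 (SE, limma adjusted p = 0.0498), where the left ventricle groups held 2 arrays each. The call was lost without 12 of the 16 arrays in turn, with the deposited values (adjusted p = 0.0585), quantile normalization (0.0550), array weights (0.392), 1 array per group as the minimum (0.0629) and the mean of the Acta2 probes (0.380). The 2 HYP left ventricle arrays read -2.32 and -2.81, near the CON right ventricle mean of -2.94, and the 2 CON left ventricle arrays, whose sign is in doubt, read -0.180 and -0.720. Among 12 groups of 6 right ventricle samples for the 4 probes, 0 had a sample far from the rest, where chance gives about 1 in 20.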

How the results depend on the processing

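In the right ventricle, the CHF difference of Acta2 probe 1745 kept its direction and its call under every alternative run for that probe and in all 12 fits that left out 1 array, and that of Acta1 did so except when signs were turned (3.31). Over all comparisons, 267 of 316 alternative values of the alpha-actin probes kept their direction and their side of the threshold, 12 lost a call, 9 gained one and 28 changed sign. In these counts the mean of the 3 Acta2 probes enters once for each of them, set against that probe's own value. Except where fewer arrays or probes were fitted, the cause of a change was not tested. Scores without intensities give no depth, so the number of arrays (2 per left ventricle group) limits what could be detected.

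With the sign of the 5 doubtful arrays turned, 11, 1 and 1 probes were called in CHF minus CON, HYP minus CON and CHF minus HYP of the right ventricle, 99 in HYP minus CON of the left, 0 between ventricles, and 11 and 34 in the CHF and HYP differences between ventricles. In HYP minus CON of the right ventricle, Acta1 (3.11) and probe 1745 (3.06) lost their calls. Probe 4338 turned to -0.0705 in CHF minus CON and -0.0475 in CHF minus HYP of the right ventricle, to 0.128, -0.637 and 0.765 in CHF minus CON, HYP minus CON and CHF minus HYP of the left, to -0.671 between ventricles and to -0.199 and 0.614 in the CHF and HYP differences between ventricles. Probe 4364 turned to -1.26 in CHF minus CON and -2.15 in HYP minus CON of the left ventricle, lost its call between ventricles (0.181) and turned to 2.20 in the HYP difference between ventricles. Acta1 turned to -1.66 in CHF minus CON of the left ventricle and gained a call in the HYP difference between ventricles (5.81), and probe 1745 gained one in the CHF difference (5.20). In CHF minus CON of the right ventricle, Cav1 turned to -3.68, Cfl1 to -3.58 and Ttn probe 1997 to -3.74.

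Array weights gave 49 calls in CHF minus CON and 1 in CHF minus HYP of the right ventricle, 1109 between ventricles, and 5 and 0 in the CHF and HYP differences between ventricles. There probe 1745 was called for CHF (4.35) and no longer for HYP (4.86), and probe 4364 turned to 0.375 for HYP. Weights also turned probe 4364 to -0.0664 in CHF minus HYP of the right ventricle and probe 4338 to -0.151 between ventricles. As 1 mean of its 3 probes, Acta2 was called in CHF minus CON of the right ventricle (1.58) and between ventricles (0.583), but not in HYP minus CON (1.03) or the HYP difference between ventricles (1.70, with 0 calls over all genes), and it stood at -0.0263, -0.676 and 0.649 in CHF minus CON, HYP minus CON and CHF minus HYP of the left ventricle. CHF minus CON of the right ventricle had 49 calls once the array component entered as covariate, and 19 without the doubtful arrays. HYP minus CON of the right ventricle had 0 calls with these groups fitted alone (Acta1 3.11, probe 1745 3.06). Quantile normalization gave -0.0244 for Acta1 in CHF minus CON of the left ventricle. In the HYP difference between ventricles 0 probes were called after quantile normalization (probe 1745 5.08), with the deposited values (5.085) and with 1 array per group as the minimum (5.17), and 10 with only probes measured on every array, where Acta1 was called (5.37). In the CHF difference between ventricles that filter gave 1 call, and probe 4364 stood at -0.157 after quantile normalization and -0.0135 with the deposited values.

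Sample numbers are shared by 6 pairs of right and left ventricle samples. Both samples of a pair are always of the same condition, and the labels do not say whether they come from the same animal. Deviations from the group means correlated between same-numbered samples at -0.293 to 0.421 over 1634 probes, above 0.1 in 3 of 6 pairs. Of the 6 samples, 3 correlated best with their own number. The 2 left ventricle samples of a condition deviate from their mean by equal and opposite amounts. These correlations therefore cannot settle whether the numbers mark pairs, and the main fit took the samples as unpaired. With the number as a fixed block, 746 probes were called between ventricles, Acta1 passed at 1.02 (limma adjusted p = 0.00997), probe 4364 at 1.06 (adjusted p = 0.00397), probe 1745 did not at 0.590 and probe 4338 turned to -0.067. With the number as a random block, 762 were called and probe 4338 stood at -0.0104. In the random block the CHF and HYP differences between ventricles had 4 and 8 calls, with probe 1745 at 4.83 (limma adjusted p = 0.0347) and probe 4364 at 0.0685 for HYP. Over the 6 same-numbered pairs an exact two-sided sign-flip test, whose smallest p is 0.03125, gave that p for probe 4364 (0.125 after adjustment over the 4 probes, right higher in 6 of 6) and 0.25, 0.5 and 0.781 for Acta1, probe 1745 and probe 4338.

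Leaving out 1 array at a time, CHF minus CON of the right ventricle had 17 to 40 calls, with 17 without CON array 19 and 18 without CHF array 10. HYP minus CON of the right ventricle had 4 to 12, falling to 4 when HYP array 4 or 6 or CON array 19 was left out, to 5 for CON array 18 and to 6 for CON array 22. There Acta1 ranged from 2.75 to 3.45, probe 4338 from -0.224 to 0.168 and probe 4364 from -0.112 to 0.166. In the left ventricle, where the lone array left in a group was assumed to vary like the other groups, HYP minus CON had 0 to 4 calls, with 4 without HYP array 3, and CHF minus HYP 0 to 5, with 5 without HYP array 3 and 1 without HYP array 5. In CHF minus CON of the left ventricle Acta1 ranged from -1.40 to 1.47, probe 1745 from -1.62 to 1.25 and probe 4338 from -0.541 to 0.385. Probes 4338 and 4364 ranged from -0.283 to 0.349 and from -0.416 to 0.531 in HYP minus CON, and from -0.574 to 0.352 and from -0.347 to 0.601 in CHF minus HYP. Between ventricles there were 152 to 688 calls, and probe 4338 ranged from -0.147 to 0.161. The most calls came without CHF right ventricle array 14, and 152, 254, 239, 178 and 157 came without left ventricle arrays CHF 9, CHF 15, HYP 3, CON 21 and CON 22. The CHF difference between ventricles had 0 to 8 calls (1 without CON right ventricle array 19, 8 without CHF left ventricle array 9), with probe 1745 from 2.89 to 5.76, called only without CHF left ventricle array 9, and probe 4364 from -0.156 to 0.163. The HYP difference between ventricles had 0 to 10 calls, with Acta1 from 4.64 to 6.10, called without HYP right ventricle array 5 or CON right ventricle array 20 or 21, probe 1745 from 4.90 to 5.5, probe 4338 from -0.372 to 0.260 and probe 4364 from -0.487 to 0.460.

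Leaving out the arrays deposited with 2 decimals was not run, since no CON left ventricle array would remain. Tests of the difference between 2 probes and the likeness over the 6 left ventricle arrays were chosen after seeing the data. So were the correlations with the first component and with the array medians.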
